A study of Sus scrofa with 9 samples.

Results

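The genes of glycolysis, gluconeogenesis, the pyruvate dehydrogenase step, the tricarboxylic acid (TCA) cycle, the pentose phosphate pathway and fructose use were followed in transplanted pig kidneys. A list of 57 enzymes, regulators and transporters was matched to the array's own annotation. A gene counted as measured when a probe set carried its symbol and no other. Where several probe sets did, the one with the highest mean over the 9 arrays stood for the gene. By this rule 40 of the 57 genes were measured, out of 12362 named genes on the array, and they comprised 15 of glycolysis, 5 of gluconeogenesis, 7 of the pyruvate dehydrogenase step, 10 of the TCA cycle and 3 of the pentose phosphate and fructose group. The other 17 were not analysed here. They were PFKL, PFKM, ALDOA, PGAM1, ENO2 and LDHB of glycolysis, FBP1 and G6PC of gluconeogenesis, PDHA1 and PDK2, the TCA cycle genes ACO1, IDH1, OGDH, FH, MDH1 and MDH2, and TKT.

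The kidneys came from male Yorkshire pigs, 1 biopsy and 1 array for each of 9 animals. All right kidneys underwent 30 min of warm ischemia, were removed and flushed, and were returned to the animal they came from, while the left kidney was taken out. NEVKP kidneys (n = 3) had 8 h of normothermic ex vivo kidney perfusion before they were returned, which keeps the organ warm and supplied with flow. SCS kidneys (n = 3) had 8 h of static cold storage without flow. No Storage kidneys (n = 3) went back at once, so these controls also carry the warm ischemia, the surgery and the loss of the other kidney, and no kidney without surgery was measured. Every biopsy dates from post-operative day 3.

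Glycolysis splits glucose into pyruvate, which is either reduced to lactate or carried into mitochondria. There the pyruvate dehydrogenase complex, held in check by the PDK kinases, turns it into acetyl-CoA for the TCA cycle. Gluconeogenesis runs the other way, through pyruvate carboxylase and phosphoenolpyruvate carboxykinase, and ends when glucose is freed from glucose 6-phosphate in the endoplasmic reticulum. In the kidney, glucose is made in the proximal tubule, whose cells draw their energy mostly from mitochondrial oxidation, while glycolysis is more active in distal segments. The pentose phosphate pathway branches off at glucose 6-phosphate and yields NADPH and ribose sugars.

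All values are log2 intensities. The array medians ran between 5.70 and 5.80, and the correlation between any pair of arrays, across probe sets, was 0.974 to 0.991. Kidney markers were bright: LRP2, the endocytic receptor megalin of the proximal tubule, lay between 11.42 and 12.41 on every array, and the thick ascending limb gene UMOD between 8.84 and 12.96. The proximal tubule phosphate transporter gene SLC34A1 lay lower, between 4.01 and 5.80. The arrays of SCS replicate 2 and NEVKP replicate 2 stood apart, with array weights of 0.464 and 0.565 in limma, against 0.930 to 1.62 for the others. In a biopsy, fewer cells of a type and less RNA per cell cannot be told apart.

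None of the 40 genes passed an adjusted p of 0.05 in any comparison (limma, Benjamini-Hochberg over all 19124 probe sets). For SCS against No Storage the smallest adjusted p among them was 0.0748, and 31 of all probe sets, 0.162%, passed. The smallest for NEVKP against No Storage was 0.342, and for NEVKP against SCS 0.599, with 0% of probe sets past the threshold in each. An F test over the 3 groups passed 1 probe set, 0.00523% of all, and gave the 40 genes adjusted p values of 0.165 or more. The differences of these 40 genes are therefore values with their errors, none of which passed the test.

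SCS kidneys differed from No Storage kidneys at an unadjusted p under 0.05 in 17 of the 40 genes, 42.5%, against 16.8% of all named genes. The 40 genes were chosen with earlier results of these data known, and 1 of them was in the dimmest 25% of probe sets. The shares of named genes, here and below, are thus not matched in choice or brightness, and no excess was tested. Higher in SCS were 5 (HK2, HK3, LDHA, PGD and TALDO1), where 7.79% of all named genes were higher at this threshold. Lower in SCS were 12 (SLC37A4, PC, PCK2, PKLR, ENO1, PDK3, DLD, DLAT, PDHB, SUCLA2, SUCLG2 and KHK), against 9.05% of all named genes. The 3 SCS arrays lay wholly above the 3 No Storage arrays for 5 of the 40, against 11.7% of named genes, and wholly below them for 11, against 13.3%. Without both SCS replicate 2 and NEVKP replicate 2, 6 genes were higher and 7 lower at this threshold. The 12 became 6 without SCS replicate 2 and 8 without No Storage replicate 3, while the 5 became 1 without SCS replicate 1 and 3 without No Storage replicate 2 or 3.

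NEVKP kidneys differed from No Storage kidneys at an unadjusted p under 0.05 in 7 of the 40 genes, 17.5%, against 9.93% of all named genes. Here 2 were higher (HK3 and LDHA), with 5.16% of named genes higher, and 5 lower (PC, SLC37A4, PDK3, PCK2 and PKLR), with 4.76% lower. The NEVKP arrays lay wholly above the No Storage arrays for 1 gene, LDHA, against 8.74% of named genes, and wholly below them for 12, against 9.31%. Leaving out NEVKP replicate 2 or No Storage replicate 2 left no gene higher, leaving out NEVKP replicate 3, SCS replicate 3 or No Storage replicate 1 or 3 left 1, and without No Storage replicate 3 the lower count was 3. Without both SCS replicate 2 and NEVKP replicate 2, none was higher and 5 were lower. Both comparisons use the same 3 No Storage arrays, so their values stand side by side below and are not independent of each other.

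**Figure D1:**
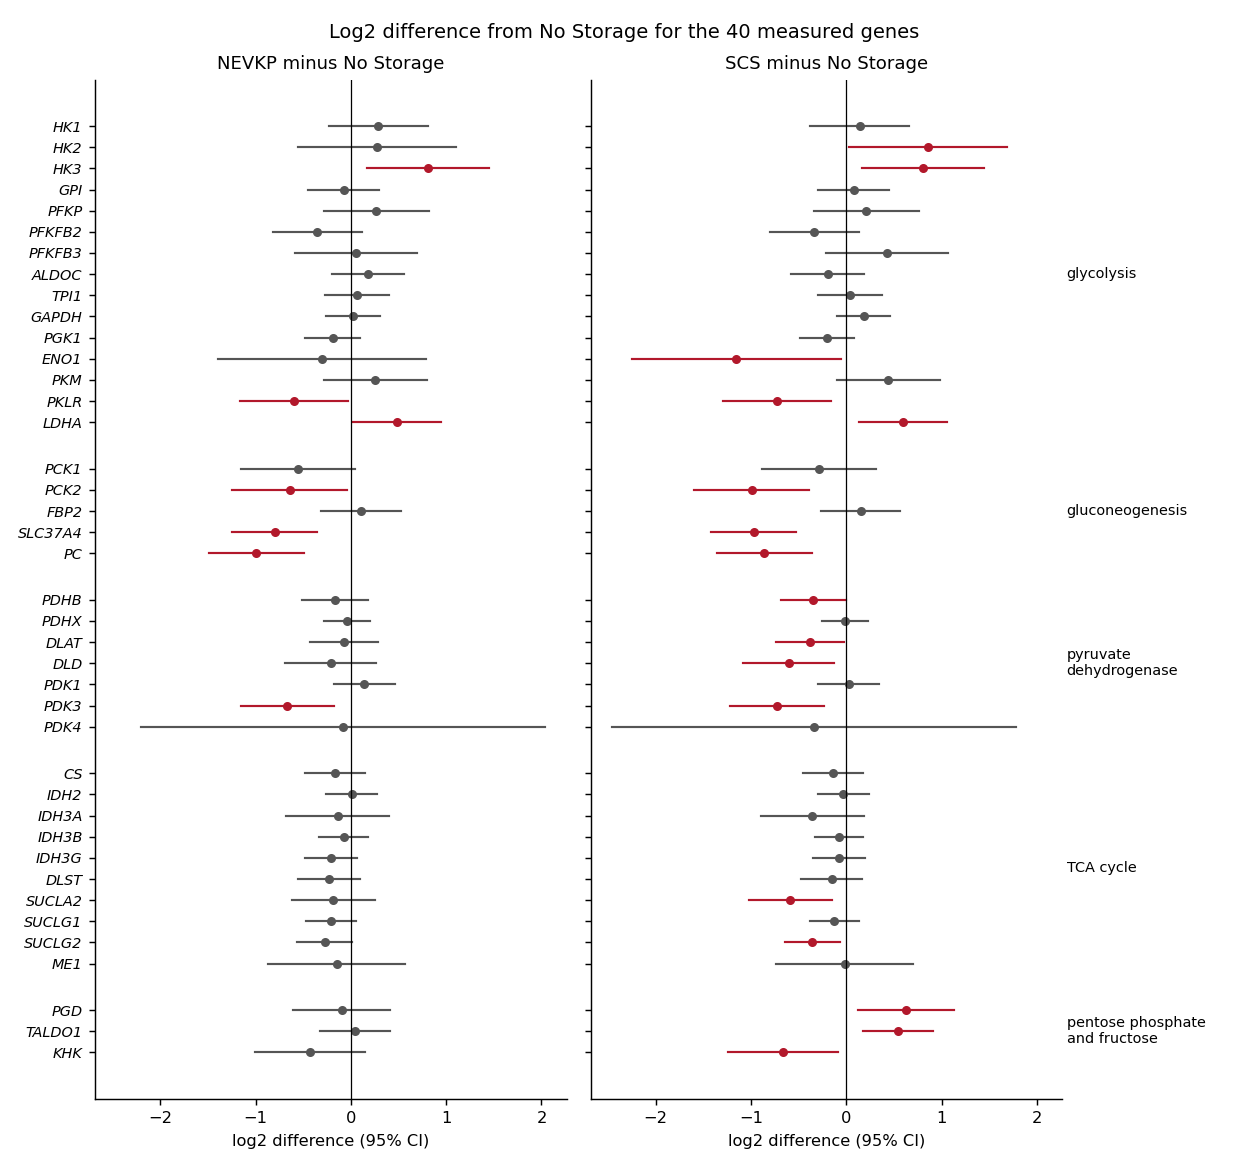
Log2 difference from No Storage with its 95% confidence interval for the 40 measured genes, grouped by role, with NEVKP in the left panel and SCS in the right (n = 3 arrays per group). Red marks an unadjusted p under 0.05 in limma and grey the others; 7 genes are red on the left and 17 on the right, and none passed after adjustment.

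Gluconeogenesis had the largest median difference from No Storage among the role groups of at least 5 genes, in NEVKP and in SCS. SLC37A4 encodes the carrier that brings glucose 6-phosphate into the endoplasmic reticulum (NCBI Gene ID 100516688). Its values were 9.60, 9.01 and 9.60 in NEVKP kidneys, 9.25, 8.95 and 9.49 in SCS kidneys, and 9.99, 10.40 and 10.22 in No Storage kidneys. Both stored groups lay wholly below No Storage. The NEVKP difference was -0.80 (SE 0.20, limma adjusted p = 0.388) and the SCS difference -0.97 (SE 0.20, limma adjusted p = 0.0748), or 0.574 and 0.509 times the No Storage level.

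PC encodes pyruvate carboxylase, which makes oxaloacetate from pyruvate (NCBI Gene ID 397630). It measured 9.14, 8.22 and 9.06 in NEVKP, 8.85, 9.07 and 8.90 in SCS, and 9.66, 9.99 and 9.75 in No Storage. Again neither stored group overlapped with No Storage, and NEVKP replicate 2 was the lowest array. The difference from No Storage was -0.99 (SE 0.23, limma adjusted p = 0.342) in NEVKP and -0.86 (SE 0.23, limma adjusted p = 0.120) in SCS.

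PCK2 and PCK1 encode the mitochondrial and cytosolic forms of phosphoenolpyruvate carboxykinase. PCK2 (NCBI Gene ID 403165) read 9.22, 8.00 and 8.94 in NEVKP kidneys, 8.14, 8.32 and 8.65 in SCS kidneys, and 9.43, 9.33 and 9.32 in No Storage kidneys. Every stored kidney lay below every No Storage kidney, with NEVKP replicate 1 the closest to them and NEVKP replicate 2 the lowest array. The PCK2 difference was -0.64 (SE 0.27, limma adjusted p = 0.531) in NEVKP and -0.99 (SE 0.27, limma adjusted p = 0.129) in SCS, and the NEVKP difference was -0.28 without NEVKP replicate 2. PCK1 (NCBI Gene ID 100144531) gave 12.05, 10.78 and 11.55 in NEVKP, 11.70, 11.59 and 11.89 in SCS, and 11.90, 12.22 and 11.91 in No Storage. NEVKP replicate 1 lay inside the No Storage range and NEVKP replicate 2 far below it, and the SCS arrays lay just below it. PCK1 differed by -0.55 (SE 0.27) in NEVKP, which was -0.21 without NEVKP replicate 2, and by -0.28 (SE 0.27) in SCS, which was -0.18 without No Storage replicate 2 or with the mean of its 2 probe sets. Within each array, PCK2 minus PCK1, centred on the No Storage kidneys, was -0.18, -0.13 and 0.04 in NEVKP, -0.91, -0.62 and -0.59 in SCS, and 0.17, -0.24 and 0.06 in No Storage. The SCS arrays were thus the low ones for this ratio, while NEVKP and No Storage overlapped; this pair was chosen after its values were seen.

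FBP2, known as the fructose bisphosphatase of muscle, was the single dim gene of the 40, with a mean over the arrays below 3.92, the limit of the dimmest 25% of probe sets. It ranged from 3.65 to 3.97 in NEVKP, 3.64 to 4.16 in SCS and 3.50 to 4.05 in No Storage. Over the 5 gluconeogenic genes, the median difference was -0.64 in NEVKP and -0.86 in SCS, beside -0.01 and 0.00 over all named genes. The NEVKP median was -0.28 without NEVKP replicate 2. Without NEVKP replicate 2, whose array enters the shared estimate of the spread, SLC37A4, PC and PCK2 had limma adjusted p values of 0.0433, 0.0395 and 0.0395 in SCS; with every other array left out in turn, and under every other setting, they did not pass.

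**Figure D2:**
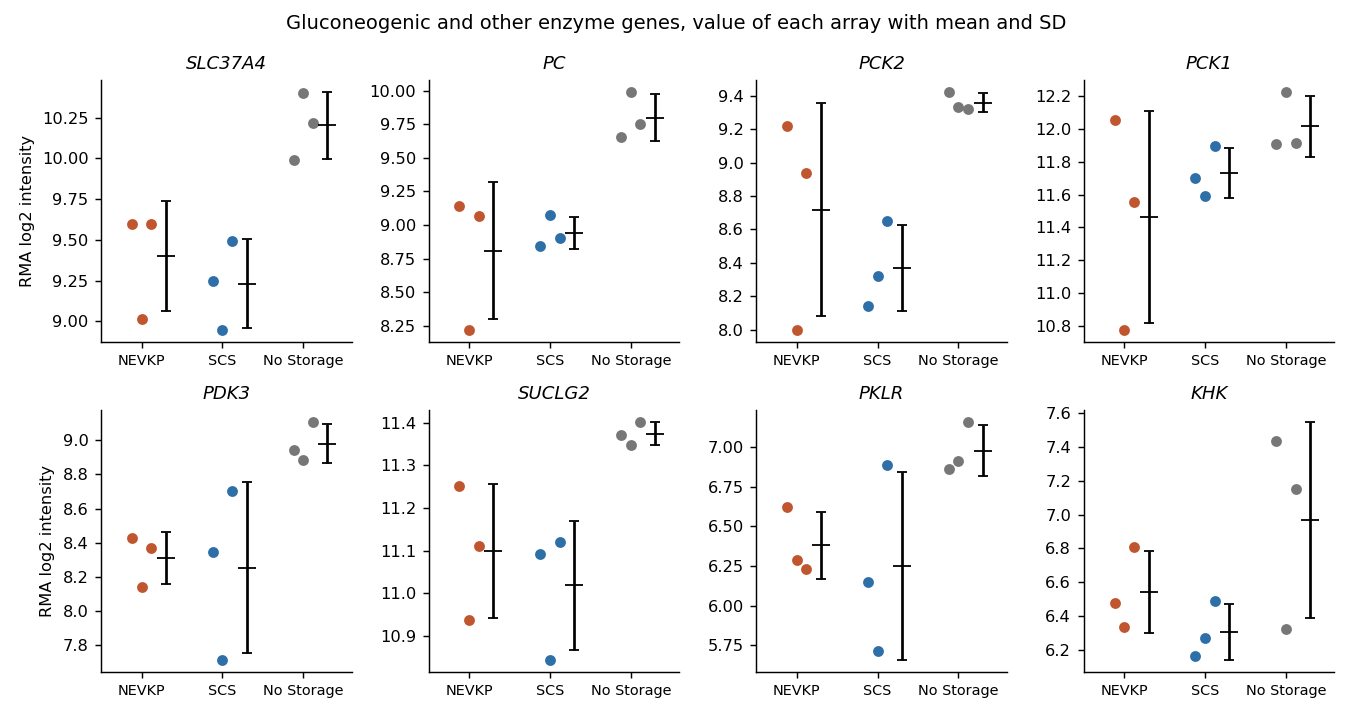
Log2 intensity of 8 genes on each array, in NEVKP, SCS and No Storage kidneys from left to right, with group means and SD bars (n = 3); the vertical axes differ and do not start at 0. For SLC37A4, PC, PCK2, PDK3 and SUCLG2 all stored kidneys lie below the No Storage kidneys, while PCK1, PKLR and KHK overlap in at least 1 comparison.

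Markers of the proximal tubule, the segment that makes glucose, were read beside these genes. Of 18 listed markers 11 were measured. At an unadjusted p under 0.05, none was higher and 3 were lower in NEVKP than in No Storage, while 1 was higher and 5 were lower in SCS. The higher marker was SLC34A1. The arrays lay wholly below No Storage for 4 markers in NEVKP and 9 in SCS, against 9.31% and 13.3% of named genes. They lay wholly above it for none in NEVKP and 2 in SCS, against 8.74% and 11.7%. Of all named genes, 9.93% were called in NEVKP and 16.8% in SCS, and no marker passed after adjustment, the smallest limma adjusted p being 0.395 in NEVKP and 0.0646 in SCS. Their summed intensity had a log2 value of 13.68 to 14.49 in NEVKP, 13.72 to 14.25 in SCS and 14.55 to 14.82 in No Storage, and the lowest array was NEVKP replicate 2. The endocytic receptor gene CUBN differed by -0.68 in NEVKP and -0.57 in SCS, whereas the brush border gene GGT1 differed by -0.06 and 0.32. Relative to No Storage, the mean of the 11 markers averaged -0.41 ± 0.39 in NEVKP and -0.54 ± 0.23 in SCS (SD, n = 3 each), beside -0.58 ± 0.43 in NEVKP and -0.59 ± 0.17 in SCS for the 5 gluconeogenic genes. The marker mean includes SLC34A1, which differed by 0.29 in NEVKP and 1.02 in SCS. The gluconeogenic mean includes the dim FBP2, which differed by 0.10 in NEVKP and 0.15 in SCS. Of 8 measured collecting duct markers, 5 were lower in NEVKP and 5 in SCS at an unadjusted p under 0.05, and none was higher. Their median differences were -0.54 and -0.72, beside -0.49 and -0.57 for the proximal tubule markers. Of 7 loop of Henle and distal tubule markers, none was called in NEVKP and 3 were lower in SCS. Their medians were 0.19 and -0.62, so lower values were not particular to the proximal tubule list. The part of the tubule markers in the gluconeogenic values was not tested.

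**Figure D3:**
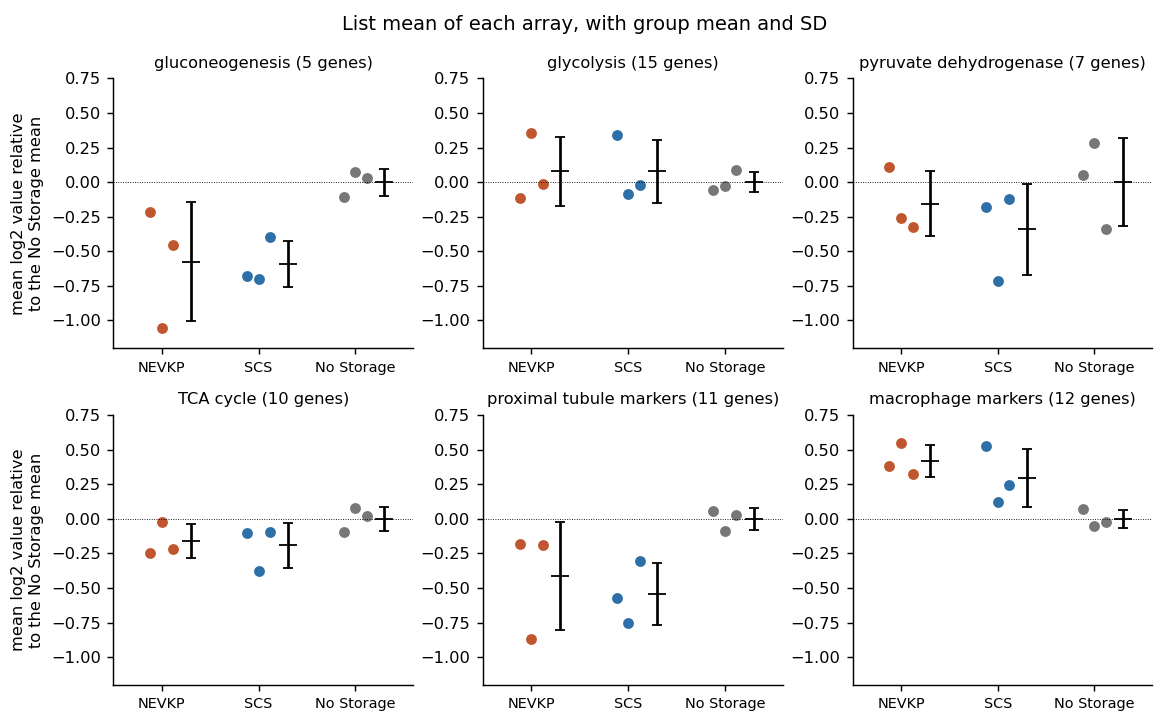
Mean log2 value of a gene list on each array, relative to the No Storage mean of each gene, for 4 role groups and 2 marker lists, with group means and SD bars (n = 3). The gluconeogenic genes and the proximal tubule markers lie below No Storage on all 6 stored arrays, and NEVKP replicate 2 is the lowest array in both.

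The 15 glycolytic genes lay on both sides of No Storage. Their median difference was 0.06 in NEVKP and 0.14 in SCS, with 10 above and 5 below 0 in each. Without both SCS replicate 2 and NEVKP replicate 2 these medians were -0.07 and 0.07. At an unadjusted p under 0.05 HK2, HK3 and LDHA lay higher and ENO1 and PKLR lower in SCS, and HK3 and LDHA lay higher and PKLR lower in NEVKP.

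Hexokinases trap glucose in the cell as glucose 6-phosphate. HK1, the widespread form, read 8.81, 9.77 and 8.96 in NEVKP kidneys, 8.96, 9.30 and 8.86 in SCS kidneys, and 9.00, 8.79 and 8.89 in No Storage kidneys. Its groups overlapped, with NEVKP replicate 2 the highest array, and it differed by 0.29 (SE 0.23) in NEVKP and 0.14 (SE 0.23) in SCS. The NEVKP difference was -0.01 without NEVKP replicate 2, and the SCS difference was 0.01 without SCS replicate 2, 0.09 without No Storage replicate 2 and 0.06 with array weights. HK2, a hypoxia-inducible form, read 3.98, 4.53 and 3.93 in NEVKP, 5.62, 3.91 and 4.66 in SCS, and 4.15, 3.47 and 4.01 in No Storage. SCS replicate 1 stood far above the rest and SCS replicate 2 within the No Storage range. The No Storage mean of HK2 was 3.88, under the dim limit of 3.92. HK2 differed by 0.27 (SE 0.37) in NEVKP and 0.86 (SE 0.37, limma adjusted p = 0.308) in SCS, and by 0.41 in SCS without SCS replicate 1. HK3, a hexokinase of white blood cells, read 5.29, 6.20 and 6.61 in NEVKP kidneys, 6.33, 5.96 and 5.82 in SCS kidneys, and 5.38, 5.04 and 5.26 in No Storage kidneys. The SCS arrays and 2 of the 3 NEVKP arrays lay above all No Storage arrays, and NEVKP replicate 1 lay within them. HK3 differed by 0.81 (SE 0.29, limma adjusted p = 0.469) in NEVKP, or 0.52 without NEVKP replicate 3, and by 0.81 (SE 0.29, limma adjusted p = 0.216) in SCS.

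Markers of white blood cells were read beside HK3. Of 15 listed monocyte and macrophage markers 12 were measured. In NEVKP 7 were higher and 1 lower at an unadjusted p under 0.05, and in SCS 5 were higher and 1 lower. Of all named genes, 5.16% were higher and 4.76% lower in NEVKP and 7.79% higher and 9.05% lower in SCS, and no marker passed after adjustment. Their summed log2 intensity was 10.96 to 11.22 in NEVKP, 10.73 to 11.17 in SCS and 10.41 to 10.54 in No Storage. The myeloid transcription factor gene SPI1 differed by 0.93 in NEVKP and 1.03 in SCS, and the monocyte receptor gene CD14 by -0.02 and 0.13. Of 10 neutrophil markers 5 were measured, of which none was called in NEVKP and 2 were higher in SCS, and their summed log2 intensity was 6.70 to 6.88 in NEVKP, 7.07 to 7.76 in SCS and 6.20 to 6.87 in No Storage; the defining genes S100A8, S100A9 and MPO were dim. Of 12 T and B lymphocyte markers 10 were measured, with 2 higher in NEVKP, none called in SCS, and median differences of 0.29 and 0.05. The part of these cells in the HK3 values was not tested.

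LDHA encodes the lactate dehydrogenase subunit that favours lactate production (NCBI Gene ID 407245). It measured 9.15, 9.85 and 9.14 in NEVKP, 9.78, 9.26 and 9.42 in SCS, and 9.00, 8.90 and 8.78 in No Storage. All stored kidneys lay above all No Storage kidneys, NEVKP replicates 1 and 3 only just. LDHA differed by 0.48 (SE 0.21, limma adjusted p = 0.536) in NEVKP and 0.59 (SE 0.21, limma adjusted p = 0.209) in SCS, and by 0.25 in NEVKP without NEVKP replicate 2.

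Pyruvate kinase makes pyruvate in the last step of glycolysis, and has 2 genes. PKLR, the form of liver, red cells and proximal tubule, read 6.62, 6.29 and 6.23 in NEVKP kidneys, 6.15, 5.72 and 6.88 in SCS kidneys, and 6.86, 6.91 and 7.16 in No Storage kidneys. NEVKP lay wholly below No Storage, while SCS replicate 3 overlapped with it. PKLR differed by -0.60 (SE 0.26, limma adjusted p = 0.536) in NEVKP and -0.73 (SE 0.26, limma adjusted p = 0.211) in SCS. The SCS difference was -0.46 without SCS replicate 2, and it passed at -1.05 without SCS replicate 3 (limma adjusted p = 0.0493). PKM, the form of most other cells, read 10.27, 11.15 and 10.09 in NEVKP, 10.89, 10.55 and 10.64 in SCS, and 10.29, 10.32 and 10.13 in No Storage. The SCS arrays lay above No Storage and the NEVKP arrays on both sides of it. PKM differed by 0.26 (SE 0.24) in NEVKP, which was -0.07 without NEVKP replicate 2, and by 0.44 (SE 0.24, limma adjusted p = 0.423) in SCS. PKM minus PKLR within an array, centred on the No Storage kidneys, was 0.38, 1.59 and 0.59 in NEVKP, 1.47, 1.56 and 0.48 in SCS, and 0.16, 0.14 and -0.30 in No Storage. Every stored kidney exceeded every No Storage kidney in this ratio. This pair and PCK2 minus PCK1 were picked from several pairs of related enzyme genes after their values were seen. Among the other pairs, every stored kidney also lay above every No Storage kidney for HK3 minus HK1, and below for PDK3 minus PDK1.

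ENO1, the widespread enolase, read 9.83, 9.62 and 10.04 in NEVKP kidneys, 10.44, 8.31 and 8.20 in SCS kidneys, and 9.83, 10.06 and 10.51 in No Storage kidneys. SCS replicates 2 and 3 lay more than 1 log2 unit below every other array and SCS replicate 1 among the highest, so the SCS group had an SD of 1.26. ENO1 differed by -0.30 (SE 0.49) in NEVKP and -1.15 (SE 0.49, limma adjusted p = 0.298) in SCS, and the SCS value was -1.88 without SCS replicate 1 and -0.76 without SCS replicate 3. Phosphofructokinase commits glucose to glycolysis, and its platelet-type subunit gene PFKP gave 6.99, 8.14 and 7.41 in NEVKP, 7.67, 7.42 and 7.27 in SCS, and 7.32, 7.13 and 7.27 in No Storage. The groups overlapped, NEVKP replicate 2 being the highest array. PFKP differed by 0.27 (SE 0.25) in NEVKP, or -0.05 without NEVKP replicate 2, and by 0.21 (SE 0.25) in SCS, or 0.10 without SCS replicate 1. PFKFB3, whose product makes the activator fructose 2,6-bisphosphate, read 7.60, 8.59 and 7.93 in NEVKP kidneys, 8.54, 8.63 and 8.07 in SCS kidneys, and 7.67, 7.78 and 8.51 in No Storage kidneys. These groups overlapped too, and PFKFB3 differed by 0.05 (SE 0.29) in NEVKP and 0.43 (SE 0.29) in SCS, where it was 0.27 without No Storage replicate 1 and 0.69 without No Storage replicate 3.

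The remaining 6 glycolytic genes, GPI, PFKFB2, ALDOC, TPI1, GAPDH and PGK1, differed from No Storage by -0.35 (PFKFB2) to 0.18 (ALDOC) in NEVKP and by -0.33 (PFKFB2) to 0.18 (GAPDH) in SCS. PGK1, a phosphoglycerate kinase, lay lower on every stored array, with 9.91 to 10.06 in NEVKP, 9.74 to 10.06 in SCS and 10.10 to 10.24 in No Storage. GAPDH, often used as a reference transcript, measured 12.07, 12.36 and 12.10 in NEVKP, 12.36, 12.28 and 12.34 in SCS, and 12.20, 12.24 and 12.01 in No Storage. Its SCS arrays lay above No Storage by a narrow margin, and its NEVKP arrays overlapped.

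**Figure D4:**
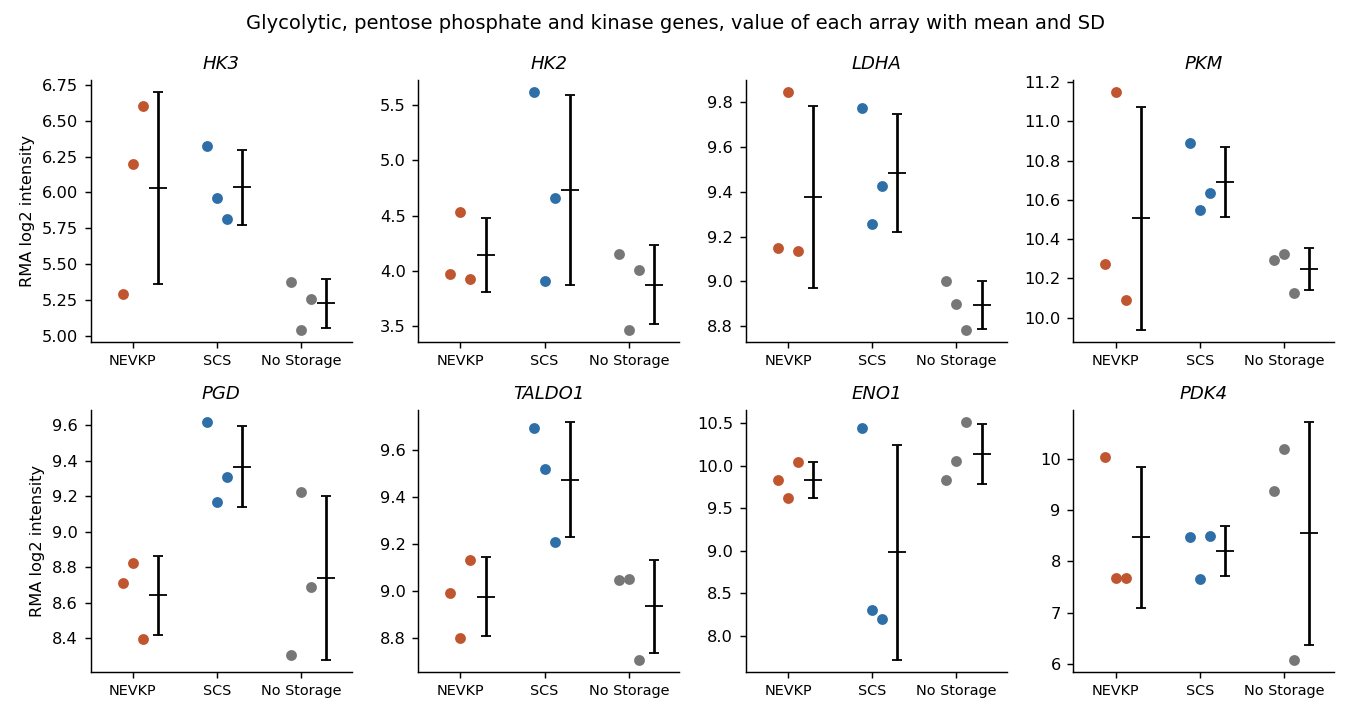
Log2 intensity of 8 genes on each array, in NEVKP, SCS and No Storage kidneys from left to right, with group means and SD bars (n = 3); the vertical axes differ and do not start at 0. LDHA lies above No Storage on all 6 stored arrays, PGD and TALDO1 are higher in SCS than in NEVKP without overlap, while ENO1 is spread widely within SCS and PDK4 within NEVKP and No Storage.

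Around pyruvate dehydrogenase, the core genes DLD, DLAT and PDHB had lower means in SCS than in both other groups. Over the 7 genes of this step, the median difference was -0.08 in NEVKP and -0.35 in SCS. DLD, the dihydrolipoamide dehydrogenase shared with the 2-oxoglutarate complex, read 10.19, 10.21 and 9.85 in NEVKP kidneys, 10.02, 9.15 and 9.91 in SCS kidneys, and 10.22, 10.33 and 10.32 in No Storage kidneys. SCS replicate 2 was the lowest array, and both stored groups lay below No Storage. For NEVKP the margin was narrow, 10.21 in the highest NEVKP array and 10.22 in the lowest No Storage array. DLD differed by -0.21 (SE 0.21) in NEVKP and -0.60 (SE 0.21, limma adjusted p = 0.216) in SCS, or -0.33 in SCS without SCS replicate 2. DLAT, the acetyl transferase core of the complex, read 9.29, 9.38 and 9.20 in NEVKP, 9.14, 8.63 and 9.17 in SCS, and 9.35, 9.49 and 9.25 in No Storage. SCS lay below both other groups, with a narrow margin to NEVKP. At the second DLAT probe set SCS and NEVKP overlapped, with 5.77 in the highest SCS array and 5.70 in the lowest NEVKP array. The DLAT difference was -0.07 (SE 0.16) in NEVKP and -0.38 (SE 0.16, limma adjusted p = 0.288) in SCS, which was -0.21 without SCS replicate 2. PDHB, the beta subunit of the first enzyme, differed by -0.17 (SE 0.15) in NEVKP and -0.35 (SE 0.15, limma adjusted p = 0.316) in SCS, which was -0.19 without SCS replicate 2. PDHX, a binding subunit, stayed between 8.25 and 8.43 on all 9 arrays.

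Of the kinases that switch the complex off, PDK3 read 8.43, 8.14 and 8.37 in NEVKP kidneys, 8.35, 7.71 and 8.70 in SCS kidneys, and 8.94, 8.89 and 9.11 in No Storage kidneys. No stored kidney reached the No Storage range. PDK3 differed by -0.67 (SE 0.22, limma adjusted p = 0.444) in NEVKP and -0.73 (SE 0.22, limma adjusted p = 0.156) in SCS, where it was -0.46 without SCS replicate 2. PDK4, the kinase that responds to fasting and fatty acids, read 10.04, 7.67 and 7.69 in NEVKP, 8.48, 7.65 and 8.49 in SCS, and 9.37, 10.18 and 6.08 in No Storage. No Storage replicate 3 was the lowest and No Storage replicate 2 the highest of all arrays, so the SD in No Storage was 2.17, the largest of any of the 40 genes in that group. The PDK4 difference was -0.08 (SE 0.95) in NEVKP and -0.34 (SE 0.95) in SCS, and these were -1.31 and -1.57 without No Storage replicate 3 and 0.74 and 0.48 without No Storage replicate 2. PDK1 ranged from 6.54 to 6.56 in NEVKP, 6.18 to 6.62 in SCS and 6.28 to 6.59 in No Storage.

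All 10 TCA cycle genes were below No Storage in SCS and 9 of 10 in NEVKP, where 6177 of the 12362 named genes were below it in SCS and 6369 in NEVKP. The median difference was -0.17 in NEVKP and -0.13 in SCS, and at an unadjusted p under 0.05 none was called in NEVKP and 2 were lower in SCS, against 4.76% and 9.05% of named genes lower. Both encode subunits of succinate-CoA ligase. SUCLA2, its ATP-forming subunit, read 8.93, 8.96 and 8.68 in NEVKP kidneys, 8.77, 7.97 and 8.61 in SCS kidneys, and 8.93, 9.06 and 9.13 in No Storage kidneys. SCS lay wholly below No Storage, while NEVKP replicates 1 and 2 reached above the lowest No Storage array, replicate 1 only just. SUCLA2 differed by -0.18 (SE 0.20) in NEVKP and -0.59 (SE 0.20, limma adjusted p = 0.188) in SCS, which was -0.35 without SCS replicate 2. SUCLG2, the GTP-forming subunit, read 11.25, 10.94 and 11.11 in NEVKP, 11.09, 10.84 and 11.12 in SCS, and 11.37, 11.35 and 11.40 in No Storage. All stored kidneys lay below the narrow No Storage range, and the difference was -0.27 (SE 0.13, limma adjusted p = 0.565) in NEVKP and -0.36 (SE 0.13, limma adjusted p = 0.227) in SCS.

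CS, citrate synthase, the entry enzyme of the cycle, read 10.28, 10.61 and 10.47 in NEVKP kidneys, 10.54, 10.29 and 10.61 in SCS kidneys, and 10.46, 10.65 and 10.73 in No Storage kidneys. The groups overlapped and the differences were -0.16 (SE 0.14) in NEVKP and -0.14 (SE 0.14) in SCS. IDH2, the mitochondrial NADP-dependent isocitrate dehydrogenase, read 10.11, 10.39 and 10.15 in NEVKP, 10.14, 10.24 and 10.14 in SCS, and 10.14, 10.26 and 10.22 in No Storage. Its groups overlapped as well, with differences of 0.01 (SE 0.12) and -0.03 (SE 0.12), and 95% intervals of -0.26 to 0.28 in NEVKP and -0.30 to 0.23 in SCS. The other 6 genes were SUCLG1, DLST, the NAD-dependent isocitrate dehydrogenase subunits IDH3A, IDH3B and IDH3G, and ME1, the cytosolic malic enzyme. They differed by -0.23 (DLST) to -0.07 (IDH3B) in NEVKP and by -0.35 (IDH3A) to -0.02 (ME1) in SCS. The NEVKP arrays lay wholly below No Storage for 5 of the 10, SUCLG1, SUCLG2, DLST, IDH3B and IDH3G, against 9.31% of named genes. For IDH3B the margin was narrow, 8.16 in the highest NEVKP array and 8.17 in the lowest No Storage array. The SCS arrays lay wholly below No Storage for 2 of the 10, against 13.3% of named genes.

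The pentose phosphate genes TALDO1 and PGD had higher means in SCS than in both other groups. TALDO1, transaldolase of the non-oxidative branch (NCBI Gene ID 100514210), measured 8.99, 8.80 and 9.13 in NEVKP kidneys, 9.70, 9.52 and 9.21 in SCS kidneys, and 9.05, 9.05 and 8.71 in No Storage kidneys. SCS lay above all NEVKP and all No Storage arrays, and those 2 groups overlapped. The NEVKP minus SCS difference was -0.50 (SE 0.17, 95% interval -0.87 to -0.13, limma adjusted p = 0.599), and SCS minus No Storage was 0.54 (SE 0.17, limma adjusted p = 0.160). PGD, 6-phosphogluconate dehydrogenase, an NADPH-forming enzyme (NCBI Gene ID 397546), measured 8.71, 8.82 and 8.39 in NEVKP, 9.62, 9.17 and 9.31 in SCS, and 8.30, 9.22 and 8.69 in No Storage. The SCS arrays lay above all NEVKP arrays, but No Storage replicate 2 reached into the SCS range. NEVKP minus SCS was -0.72 (SE 0.23, 95% interval -1.23 to -0.22, limma adjusted p = 0.599), and SCS minus No Storage was 0.63 (SE 0.23, limma adjusted p = 0.223), or 0.41 without No Storage replicate 1. NEVKP minus No Storage was 0.04 (SE 0.17) for TALDO1 and -0.10 (SE 0.23) for PGD.

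KHK, ketohexokinase, which starts the use of fructose in the proximal tubule, read 6.47, 6.34 and 6.81 in NEVKP kidneys, 6.16, 6.27 and 6.49 in SCS kidneys, and 7.44, 6.32 and 7.15 in No Storage kidneys. No Storage replicate 2 lay among the stored kidneys and the other 2 No Storage arrays above them all. KHK differed by -0.43 (SE 0.26) in NEVKP, or -0.20 without No Storage replicate 1 and -0.75 without No Storage replicate 2, and by -0.66 (SE 0.26, limma adjusted p = 0.252) in SCS, or -0.43 without No Storage replicate 1.

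Between NEVKP and SCS kidneys, which differ in how the 8 h were spent, 2 of the 40 genes were lower in NEVKP at an unadjusted p under 0.05, PGD and TALDO1, with 3.29% of named genes lower, and none was higher, with 4.42% higher. The NEVKP arrays lay wholly above the SCS arrays for ALDOC and DLAT, against 5.83% of named genes, and wholly below them for PGD and TALDO1, against 6.56%. For ALDOC and DLAT the margin was narrow, and at the second DLAT probe set NEVKP and SCS overlapped. Without both SCS replicate 2 and NEVKP replicate 2, 1 was higher and 5 were lower, the same counts as without NEVKP replicate 2 alone. There were 4 higher and 1 lower without SCS replicate 1, 2 higher without SCS replicate 3, and 1 higher without No Storage replicate 3. The median NEVKP minus SCS difference over the 40 genes was 0.00, and it was -0.05 over gluconeogenesis, 0.00 over glycolysis, -0.01 over the TCA cycle and 0.18 over the pyruvate dehydrogenase step. Without both SCS replicate 2 and NEVKP replicate 2 the gluconeogenic median was 0.23 and the TCA cycle median -0.16.

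After PGD and TALDO1, the smallest unadjusted p values of this comparison belonged to ALDOC, SUCLA2, DLAT and DLD. ALDOC, the aldolase known from brain, read 4.96, 5.22 and 4.93 in NEVKP, 4.88, 4.44 and 4.67 in SCS, and 4.69, 4.73 and 5.15 in No Storage, a difference of 0.37 (SE 0.17) that was 0.17 without both SCS replicate 2 and NEVKP replicate 2. SUCLA2, DLAT and DLD were higher in NEVKP by 0.41 (SE 0.20), 0.31 (SE 0.16) and 0.39 (SE 0.21), and by 0.17, 0.14 and 0.12 without SCS replicate 2. For the gluconeogenic genes the NEVKP minus SCS difference was 0.35 (95% interval -0.25 to 0.95) for PCK2, 0.17 (-0.28 to 0.62) for SLC37A4 and -0.13 (-0.63 to 0.37) for PC, and the last was 0.16 without NEVKP replicate 2. Over the alternatives tried, the PCK2 value ran between 0.10 and 0.71 and the SLC37A4 value between 0.032 and 0.37.

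**Figure D5:**
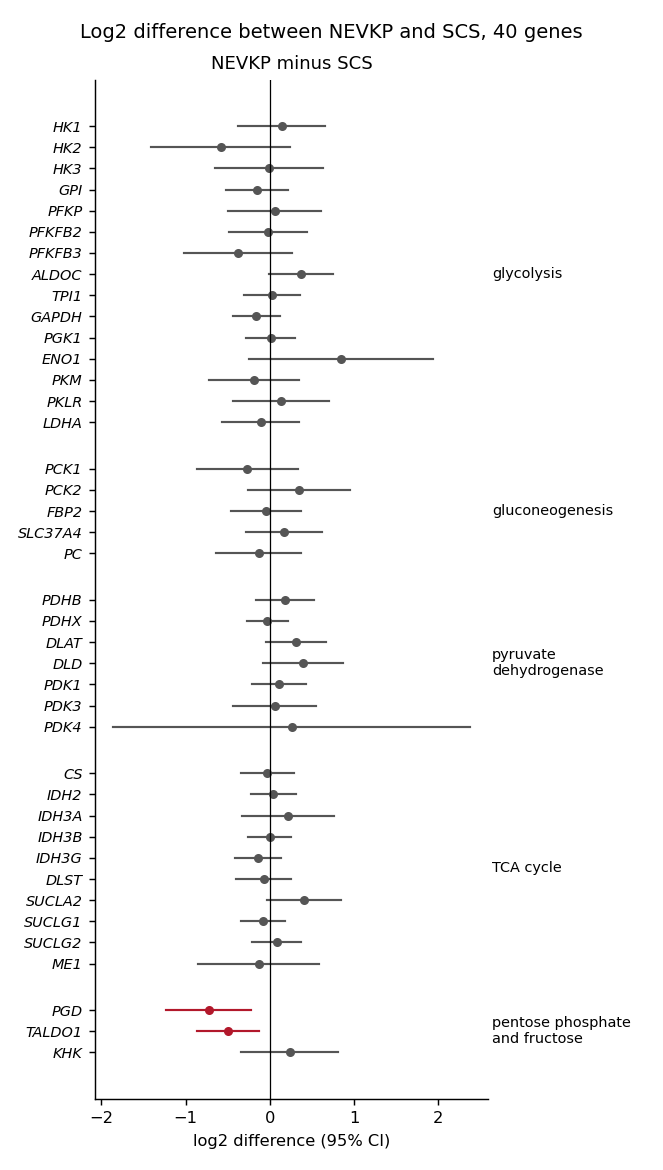
NEVKP minus SCS log2 difference with its 95% confidence interval for the 40 measured genes, grouped by role (n = 3 arrays per group). Red marks an unadjusted p under 0.05 in limma; PGD and TALDO1 lie below 0 at -0.72 and -0.50, and every other interval includes 0.

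Further genes of the same pathways were read from lists of related enzymes, transporters and transcription factors. Of 12 measured enzymes near glycolysis and glucose release, 1 was higher and 2 were lower in SCS at an unadjusted p under 0.05, and 1 was higher and none lower in NEVKP, both against No Storage. Of 10 near pyruvate and the TCA cycle, 1 was higher and 4 were lower in SCS, and 1 was higher in NEVKP. Of 6 near the pentose phosphate pathway and fructose, 2 were lower in SCS and 1 in NEVKP. These are shares of 25%, 50% and 33.3% in SCS and 8.33%, 10% and 16.7% in NEVKP, against 16.8% and 9.93% of all named genes. None of these passed after adjustment. ME3, a mitochondrial malic enzyme, measured 7.80, 8.05 and 7.75 in NEVKP kidneys, 7.61, 7.44 and 7.46 in SCS kidneys, and 7.44, 7.23 and 7.38 in No Storage kidneys. NEVKP lay above both other groups, 0.52 above No Storage (limma adjusted p = 0.388). MPC2, a subunit of the carrier that takes pyruvate into mitochondria, read 9.44, 9.38 and 9.42 in NEVKP, 8.98, 8.66 and 9.02 in SCS, and 9.36, 9.43 and 9.45 in No Storage. SCS lay below both other groups, with a NEVKP minus SCS difference of 0.53 (limma adjusted p = 0.520).

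Of 8 measured transporters of glucose, fructose and lactate, 3 were lower in SCS than in No Storage at an unadjusted p under 0.05 and none was called in NEVKP, while 4 were higher in NEVKP than in SCS. Of all named genes, 9.05% were lower in SCS than in No Storage and 4.42% higher in NEVKP than in SCS. SLC16A7, a carrier of lactate and pyruvate, read 8.52, 8.90 and 8.30 in NEVKP kidneys, 7.85, 7.57 and 8.00 in SCS kidneys, and 8.56, 8.67 and 8.69 in No Storage kidneys. SCS lay below both other groups, and SLC16A7 was 0.77 higher in NEVKP than in SCS (limma adjusted p = 0.520) and differed by -0.83 between SCS and No Storage (limma adjusted p = 0.0741), which passed without NEVKP replicate 2 (limma adjusted p = 0.0433). SLC5A8, a sodium-coupled lactate transporter, read 5.08, 8.15 and 7.51 in NEVKP, 4.40, 5.08 and 4.58 in SCS, and 6.80, 4.60 and 5.54 in No Storage. NEVKP replicates 2 and 3 were the highest arrays and NEVKP replicate 1 equalled the highest SCS array to 2 decimals, and the NEVKP minus SCS difference was 2.23 (limma adjusted p = 0.599). Of 7 measured loop of Henle and distal tubule markers, 5 were higher in NEVKP than in SCS at an unadjusted p under 0.05 and none was lower. Their summed log2 intensity was 13.19 to 13.97 in NEVKP, 11.76 to 12.56 in SCS and 13.03 to 13.67 in No Storage. Of the 11 proximal tubule markers, 2 were higher and 1 was lower in NEVKP than in SCS, with a median difference of -0.06. SLC5A2 is on both the transporter list and the proximal tubule list. The part of either marker list in the transporter values was not tested.

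Of 12 measured transcription factors that act on these genes, 1 was higher and 1 lower in SCS than in No Storage at an unadjusted p under 0.05. In NEVKP 1 was higher and 2 were lower. These are shares of 16.7% in SCS and 25% in NEVKP, against 16.8% and 9.93% of all named genes. MYC, an activator of glycolytic genes and LDHA, passed the test in SCS. It measured 8.09, 8.25 and 8.13 in NEVKP kidneys, 8.76, 8.47 and 8.27 in SCS kidneys, and 7.51, 7.47 and 7.21 in No Storage kidneys. MYC rose in SCS by 1.10 against No Storage (limma adjusted p = 0.0419) and differed by 0.76 in NEVKP (limma adjusted p = 0.299), with no overlap between either stored group and No Storage. The SCS call was lost without SCS replicate 1 or 2, any No Storage array, or NEVKP replicate 1 or 3, with limma adjusted p values of up to 0.184. It was also lost in the fit of the compared groups alone (limma adjusted p = 0.0552) and without both SCS replicate 2 and NEVKP replicate 2 (limma adjusted p = 0.0887). PPARA, a nuclear receptor that drives fatty acid oxidation and PDK4, read 8.85, 8.53 and 9.20 in NEVKP, 8.31, 8.08 and 8.70 in SCS, and 9.77, 9.23 and 9.78 in No Storage. Its SCS difference was -1.23 (limma adjusted p = 0.0600), which passed without NEVKP replicate 2, without SCS replicate 3 and with array weights (limma adjusted p = 0.0433, 0.0449 and 0.0454). HNF4A, a proximal tubule factor that acts on gluconeogenic genes, read 9.15, 8.38 and 9.09 in NEVKP kidneys, 9.04, 9.31 and 9.18 in SCS kidneys, and 9.48, 9.76 and 9.57 in No Storage kidneys. Both stored groups lay below No Storage, with differences of -0.73 in NEVKP (limma adjusted p = 0.395) and -0.43 in SCS (limma adjusted p = 0.339). HNF4A is on both the transcription factor list and the proximal tubule list, so these are the same values as those of the marker.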

How the data were processed

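The deposited table holds log2 intensities of 19124 probe sets on 9 arrays, which the authors obtained by RMA (background correction, a common scale for all arrays and 1 summary value per probe set), per the submitters' processing notes. The same notes name limma 3.34.14. Neither array type nor genome build is given in the sources used here. The array's annotation gave 1 symbol to 13323 probe sets, several to 357 and none to 5444; the gene ID of 39 of the 40 measured members carried the same symbol in a RefSeq table, and the main PFKFB3 probe set had no gene ID. There were 944 probe sets with values identical to another, among them both PDHB probe sets, and no identical arrays. No filter on low values was applied.

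A linear model with group as the factor was fitted to all 9 arrays and 19124 probe sets in R 4.3.3 by lmFit, contrasts.fit and eBayes of limma 3.58.1 (6 residual and 4.12 prior degrees of freedom), with Benjamini-Hochberg adjustment over all probe sets within a comparison and a threshold of 0.05. The steps were also tested on simulated data. Every p in the text is from limma. Animals are separate biological replicates per the labels. Their numbers did not pair the samples: same-number deviations correlated at -0.139 to 0.131, and 1 of 9 pairs exceeded 0.1.

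The members and lists were chosen with earlier results of these data known. Values on every array are given for the 6 members of smallest unadjusted p per comparison, for a fixed set of regulated or kidney-typical steps, and for 3 other pathway genes per comparison; further members were added by unadjusted p or, for PGK1, GAPDH and the within-array ratios, after their values were seen.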

Additional observations from a re-analysis of the deposited data

How the results depend on the processing

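Counts of probe sets and members, medians and 60 differences of single genes were recomputed under 17 alternatives per pairwise comparison. Overlaps, ratios, summed intensities and marker lists were not. Of the 60 differences, 52 kept their direction under every alternative. The 60 took in members of small unadjusted p, the fixed set against No Storage, PCK2, SLC37A4 and PC between NEVKP and SCS, and 3 other pathway genes per comparison. Choice by a small p favours a kept direction. The alternatives were array weights, a prior that is trended and robust, a replicate block, the dimmest 25% left out, arrays centred on their median, the compared groups alone, probe sets averaged per gene, each array left out in turn, and SCS replicate 2 and NEVKP replicate 2 left out together. This last one, and all alternatives of the F test, were chosen after seeing the data. For SCS against No Storage, the count of 31 probe sets was 83 with the trended prior, 93 with array weights, 82 without the dimmest 25%, 49 with centred arrays, 0 without both arrays, and 0 to 158 with 1 array left out. For NEVKP against SCS it was 1 with array weights, and 0 to 1 with 1 array left out. The F test passed 0 with the replicate block or without both arrays, 5 with array weights, and 0 to 9 with 1 array left out. With 1 array left out, members at an unadjusted p under 0.05 numbered 1 to 6 higher and 6 to 11 lower in SCS against No Storage, 0 to 3 higher and 3 to 7 lower in NEVKP against No Storage, and 0 to 4 higher and 1 to 5 lower in NEVKP against SCS. The lower count in SCS was 7 without both arrays. The higher count in NEVKP against No Storage was 1 with the replicate block, array weights or centred arrays and 0 without both arrays, and the NEVKP against SCS counts were 1 higher and 5 lower without both arrays. The gluconeogenic median of NEVKP against No Storage was -0.28 without both arrays, and -0.89 to -0.28 with 1 left out. The TCA cycle median of NEVKP against SCS was -0.16 without both arrays. The replicate block moved no other count by more than 1.5 times, lost no single call and added PPARA in SCS (limma adjusted p = 0.0447). Some single genes changed sign. In NEVKP against No Storage, those without both arrays, and the range with 1 left out, were -0.011 (-0.011 to 0.47) for HK1, -0.046 (-0.046 to 0.53) for PFKP, -0.22 (-0.22 to 0.31) for PFKFB3, -0.067 (-0.067 to 0.46) for PKM, 0.32 (-1.31 to 0.74) for PDK4 and -0.078 (-0.078 to 0.062) for IDH2. With array weights PFKFB3 was -0.070, PDK4 0.28 and IDH2 -0.022, and with centred arrays PFKFB3 was -0.0020 and IDH2 -0.046. PDK4 in SCS against No Storage ranged from -1.57 to 0.48 with 1 array left out. PC in NEVKP against SCS was 0.026 with array weights, 0.23 without both arrays and -0.30 to 0.16 with 1 left out. The causes were not tested. A dim signal limits the reading of FBP2 and, in No Storage, of HK2, and 3 arrays per group limit the precision of all differences.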
